A study of Mus musculus with 6 samples.

Results

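mmu-miR-223 and mmu-miR-22 are a pair of microRNAs (miRNAs) known from myeloid cells, and their levels are described here in CD8+ T cells that had been primed by dendritic cells or by B cells. They were chosen by name, as the mouse-named assays for miR-223 and miR-22 that do not end in the star of the minor strand. They are 2 of 345 miRNA assays with normalized values, of which 303 carry mouse names. No filter was set on their threshold cycle (Ct, the PCR cycle at which signal appears), but a Ct of 35 or above is flagged where it occurs.

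All 6 samples are CD8+ pMel-1 transgenic T cells, whose T cell receptor recognises the melanoma antigen gp100, kept in vitro for 3 days. In the DC-primed group (n = 3) they were activated with bone marrow-derived dendritic cells matured with lipopolysaccharide (LPS). In the B cell-primed group (n = 3), the control, splenic B cells carrying the hgp100 peptide were used. The titles number 3 rounds, with a DC-primed and a B cell-primed sample in each. The comparison asks how the priming cell bears on the miRNAs of the T cells. The labels do not say whether rounds used separate mice, so p-values reflect only the spread between these samples. The labels used here name no step that removed the priming cells. In such bulk RNA, fewer cells of a type and less RNA per cell cannot be told apart.

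miRNAs are cut from hairpin transcripts and guide Argonaute proteins to messenger RNAs that pair with the seed, the bases near the 5′ end. miR-223 is highly abundant in granulocytes and monocytes, where it restrains the growth of progenitors and inflammatory signalling. miR-22 is expressed more widely, with a known role in blood stem cells and in myeloid differentiation.

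The mature sequences are shown because each assay's forward primer is specific to its miRNA, and a shared stretch could let one assay read the other. They are from RefSeq (GRCm38.p6), 5′ to 3′, with the seed (bases 2 to 8) in capitals; miR-22* is the other strand of the miR-22 hairpin.
miR-223 (mmu-miR-223-3p): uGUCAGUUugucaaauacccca
miR-22 (mmu-miR-22-3p): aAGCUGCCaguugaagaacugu
miR-22* (mmu-miR-22-5p): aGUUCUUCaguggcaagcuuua

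The 3 seeds differ, and none is shared with another of the 1679 mature mouse miRNA names in that table. The longest run that miR-223 and miR-22 have in common is 5 bases. Both are 22 bases long and lie on the 3′ arm of their hairpins, printed next with both mature strands in capitals.
Mir223 hairpin, chrX:96242817-96242926, plus strand: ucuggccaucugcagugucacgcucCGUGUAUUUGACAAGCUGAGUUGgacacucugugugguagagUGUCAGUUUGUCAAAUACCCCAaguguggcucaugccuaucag
Mir22 hairpin, chr11:75463716-75463810, plus strand: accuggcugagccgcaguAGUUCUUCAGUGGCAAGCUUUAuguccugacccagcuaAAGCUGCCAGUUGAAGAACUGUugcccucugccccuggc

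Each hairpin lies within the span of 1 long noncoding RNA gene in the same annotation, F630028O10Rik for Mir223 and Mir22hg for Mir22. The deposited files name no genome build, so these positions belong to the RefSeq entries alone.

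miR-223 was early in 2 DC-primed samples and late in the other samples. Its raw Ct was 20.82, 27.23 and 36.99 in DC-primed samples 1, 2 and 3, numbered by round. B cell-primed samples 1, 2 and 3 had 32.14, 32.44 and 32.67. The DC-primed samples thus lay on both sides of the B cell-primed ones, and the third was past the flag at 35. The DC-primed values spanned 16.17 cycles and the B cell-primed values 0.53 cycles. The group means were 28.35 ± 8.14 and 32.42 ± 0.27 cycles (SD, n = 3 each), and their difference of -4.07 cycles did not exceed the spread (exact permutation test, two-sided p = 0.4, where 3 against 3 cannot go below 0.1).

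Whole samples also differed in Ct. The median Ct over the 345 assays was 27.47, 29.57 and 31.81 in DC-primed samples 1, 2 and 3, against 27.57, 28.55 and 28.84 for B cell-primed samples, so DC-primed sample 3 had the latest median, although the mean Ct of RNY3 and snoRD47 was later in DC-primed sample 2 (27.55 against 26.2 cycles). It had 280 of 350 assays below Ct 35, against 327 to 341 in the other samples. Because sample 3 stands apart, the results that rest on it are also given without it.

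The authors' normalization subtracts 1 number per sample from the Ct values, those of miR-223, miR-22 and miR-22* among them. With the sign turned, the result (minus dCt) is a level on the log2 scale in which 1 unit is a 2-fold difference if each cycle doubles the product. On this scale miR-223 was at 5.36, 1.23 and -6.53 in DC-primed samples 1, 2 and 3. The B cell-primed levels were -5.79, -5.32 and -5.04. Normalization left DC-primed sample 3 as the lowest of the 6 and kept samples 1 and 2 above the B cell-primed group. The DC-primed mean was 0.02 ± 6.04 and the B cell-primed mean -5.38 ± 0.38 (SD over 3 samples each), a difference of 5.40 ± 2.64 (SE; 95% confidence interval -0.80 to 11.6). By round the difference was 11.15, 6.55 and -1.49, positive in 2 of 3 rounds. limma, fitted over all 345 assays, did not call it (adjusted p = 0.661).

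**Figure D1:**
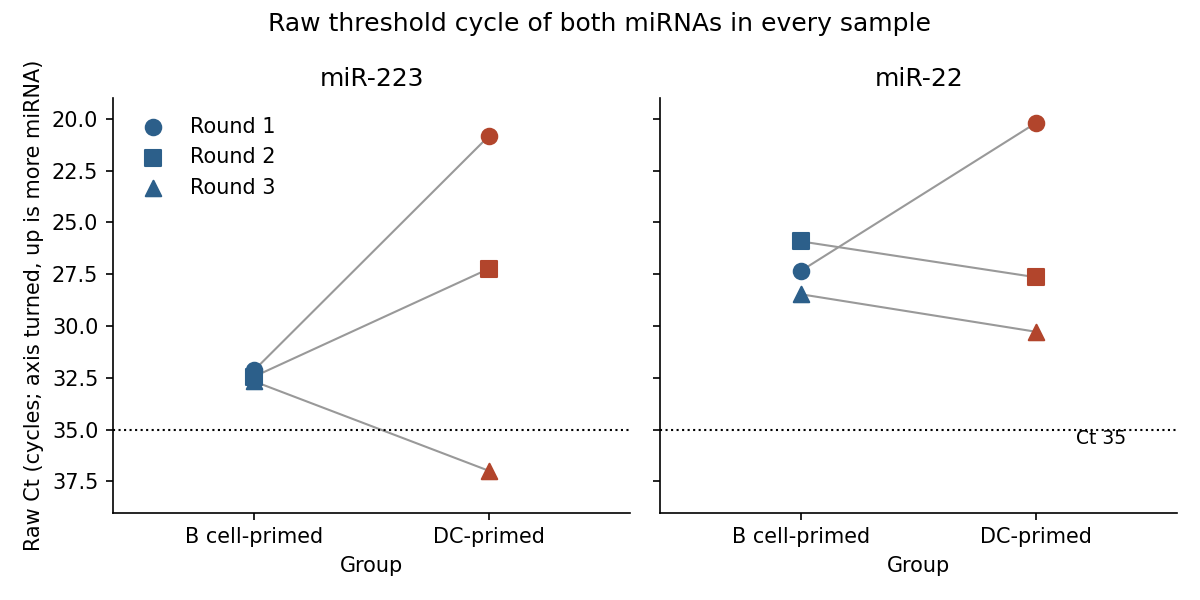
Raw Ct in cycles (vertical axis turned, so that earlier Ct is higher) of miR-223 and miR-22 in each sample (B cell-primed in blue, DC-primed in red), with lines joining the 2 samples of a round and a dotted line at Ct 35. The B cell-primed miR-223 values sit between 32.14 and 32.67, while the DC-primed values run from 20.82 to 36.99.

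miR-22 was earlier in DC-primed cells in round 1 and not in rounds 2 and 3. Its raw Ct was 20.19, 27.65 and 30.28 in DC-primed samples 1, 2 and 3, against 27.33, 25.92 and 28.47 for B cell-primed samples. DC-primed sample 1 was the earliest of the 6, and in rounds 2 and 3 the DC-primed sample was the later one by 1.73 and 1.81 cycles. No value was past 35. The mean raw Ct was 26.04 ± 5.23 and 27.24 ± 1.28 cycles (SD, n = 3 each; two-sided exact permutation p = 0.9).

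The normalized level of miR-22 was 5.99, 0.81 and 0.18 in DC-primed samples 1, 2 and 3. The B cell-primed levels were -0.98, 1.20 and -0.84. The groups overlapped, with B cell-primed sample 2 above DC-primed samples 2 and 3. The mean level was 2.33 ± 3.19 against -0.20 ± 1.22 (SD, n = 3 each), a difference of 2.53 ± 1.57 (SE; 95% confidence interval -1.14 to 6.20; limma adjusted p = 0.733). By round it was 6.97, -0.39 and 1.02.

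The miR-22* assay, for the other strand of the same hairpin, gave levels of 2.26, -1.29 and -2.42 in DC-primed samples 1, 2 and 3, against -2.21, -2.18 and -2.37 for B cell-primed samples. DC-primed sample 1 was again the highest, and sample 3 lay just below the B cell-primed values. The difference was 1.77 ± 1.19 (SE; limma adjusted p = 0.809). It was 0.39 without DC-primed sample 1 and 2.74 without DC-primed sample 3. Between the strands, the raw Ct of miR-22* was later than that of miR-22 in all 6 samples, by 1.23 to 3.73 cycles, and this gap did not differ between the groups beyond its spread (two-sided exact permutation p = 0.4). No assay for the minor strand of miR-223 was among the 345.

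**Figure D2:**
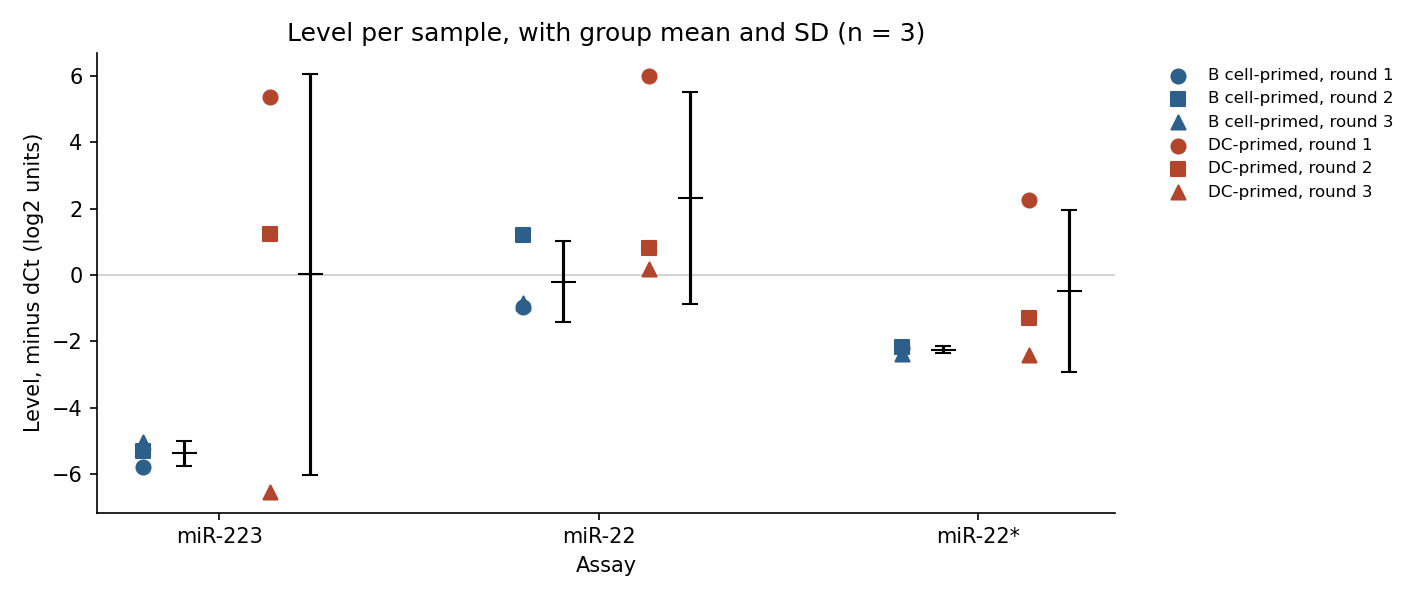
Level (minus dCt, log2 units) of miR-223, miR-22 and miR-22* in each sample (B cell-primed in blue, DC-primed in red), with the group mean and SD (n = 3) beside the points. DC-primed sample 1 is the highest of the 6 for each assay, and the DC-primed SD of miR-223 is 6.04 against 0.38 in B cell-primed cells.

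Ranks within a sample, with rank 1 for the earliest Ct, need no normalization. miR-223 ranked 23, 82 and 319 of 345 in DC-primed samples 1, 2 and 3, against 325, 314 and 316 for B cell-primed samples. It was thus among the earlier assays in DC-primed samples 1 and 2 and close to its B cell-primed rank in sample 3 (mean difference -177 ranks, two-sided exact permutation p = 0.3). miR-22 ranked 15, 98 and 111 in DC-primed samples, against 162.5, 93 and 155.5 for B cell-primed samples (mean difference -62.3 ranks, two-sided exact permutation p = 0.3).

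The distance between miR-223 and miR-22 also varied. The raw Ct of miR-223 minus that of miR-22, from which any per-sample number cancels, was 0.63, -0.42 and 6.71 cycles in DC-primed samples 1, 2 and 3. The B cell-primed gaps were 4.81, 6.52 and 4.20 cycles. In DC-primed samples 1 and 2 both miRNAs reached threshold within 1 cycle of each other, while in sample 3 the gap was the largest of the 6. The mean gap was 2.31 ± 3.85 against 5.18 ± 1.20 cycles (SD, n = 3 each), a difference of -2.87 cycles (two-sided exact permutation p = 0.4). Without DC-primed sample 3 it was -5.07 cycles, and without DC-primed sample 2 it was -1.51 cycles.

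Among all 345 assays miR-223 had the largest difference toward DC-primed cells and miR-22 the 11th largest, while the median over all assays was 0.01. Next below miR-223 were miR-9, a miRNA best known from neurons, at 4.78 ± 2.07 (SE), and miR-184 at 3.75 ± 1.91. The neighbours of miR-22 were miR-100 at 2.61 and miR-99b at 2.54 above it. Below it were miR-125b-3p at 2.46, with a Ct of 35 or above in all 6 samples, and miR-125a-5p at 2.08. These gaps in order are smaller than the standard errors. limma called 0 of 345 assays (0.0% in either direction; threshold 0.05 on the adjusted p, of which the lowest was 0.371), so neither miRNA stood out by the test. At an unadjusted p under 0.05 limma had 27 assays (7.83%), 2 of them higher in DC-primed cells, and miR-223 and miR-22 were outside that count with limma p-values of 0.0786 and 0.149. Relative to RNY3 and snoRD47, small RNAs measured in the same samples, the median difference over all assays was itself 1.23. On that scale 14 assays were under 0.05, 12 of them higher. Both miR-223 and miR-22 were among these 12 (limma unadjusted p = 0.00459 and 0.0354, adjusted p = 0.706 and 0.767). Exact permutation tests of the same levels gave two-sided p = 0.4 for miR-223 and 0.2 for miR-22. The unadjusted limma p of miR-223 was also under 0.05 with the round as a block (0.0345, adjusted p = 0.467) and with late Ct set to 35 (0.0187, adjusted p = 0.407). For miR-223 the latter setting changes only DC-primed sample 3, at Ct 36.99, and lifts its level above the B cell-primed ones. The smaller p there is thus partly built into the setting. The authors' deposited table gives fold changes of 42.2 for miR-223 and 5.77 for miR-22, with unadjusted p-values of 0.281 and 0.379 from the authors' paired test, which was under 0.05 for 18 of 345 assays.

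The spread of miR-223 lay within the DC-primed group. Its DC-primed SD ranked 5th of 345 assays, whereas its B cell-primed SD ranked 268th. The median SD over all assays was 1.27 for the DC-primed and 0.64 for the B cell-primed group. For miR-22 the ranks were 25th and 59th. limma uses 1 spread for both groups, so the standard error of miR-223 is set mainly by the DC-primed samples.

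**Figure D3:**
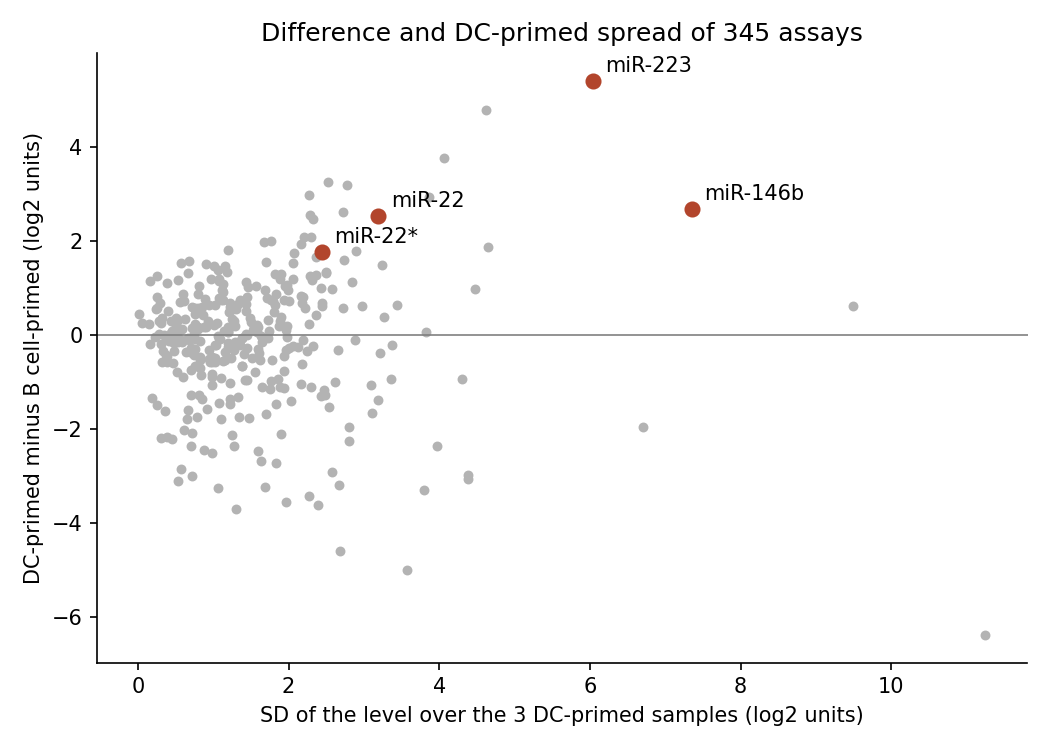
DC-primed minus B cell-primed difference in level (log2 units) against the SD of the level over the 3 DC-primed samples, 1 point for each of 345 assays, with miR-223, miR-22, miR-22* and miR-146b in red. miR-223 has the highest difference, 5.40, at an SD of 6.04.

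How far the late miR-223 values lie above unspecific signal can be read beside assays for RNAs that mice lack. The panel holds 11 human-named assays for a primate-specific miRNA cluster. Of these, 10 had an earlier Ct than miR-223 in each B cell-primed sample and all 11 did in DC-primed sample 3. The latest of the 11 in DC-primed sample 3 had no measured Ct there, and its value was filled in by the authors. In DC-primed samples 1 and 2 the number was 0 and 1. The miR-223 signal in the B cell-primed samples and in DC-primed sample 3 was therefore no earlier than most of these assays. The 11 assays ran from Ct 23.08 to 37.32 in B cell-primed sample 1. In DC-primed sample 3 they ran from 27.64 to 36.9, the latter being the filled-in value. They thus set no single background level, and whether the late miR-223 signal was above background was not settled. A fold change against this late signal is uncertain. For miR-22, 4, 2 and 4 of the 11 assays were earlier in the B cell-primed samples and 0, 2 and 2 in the DC-primed samples.

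The size of both differences depended on single samples. Without DC-primed sample 3 the miR-223 difference was 8.68 ± 1.17 (SE) and limma called it (adjusted p = 0.0116), with 4 of 345 assays called higher (1.16%), 1 called lower (0.29%) and 5 in all (1.45%). The other assays called higher were miR-146b at 6.92 ± 0.99, miR-9 at 7.29 ± 1.01 and miR-184 at 6.10 ± 0.91, and the one called lower was miR-805 at -4.38 ± 0.81. Without both samples of round 3 the miR-223 difference was 8.85 ± 1.43 and limma did not call it (adjusted p = 0.0995). Without DC-primed sample 1 it was 2.73 ± 2.13 (adjusted p = 0.525), where 1 of 345 assays (0.29%), miR-449a, was called, lower.

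For miR-22 the decisive sample was DC-primed sample 1. Without it the difference was 0.70 ± 0.85 (SE; limma adjusted p = 0.715), and without both samples of round 1 it was 0.31 ± 0.98. Without DC-primed sample 3 it was 3.60 ± 1.47 (adjusted p = 0.316). limma called miR-22 under none of the settings run.

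**Figure D4:**
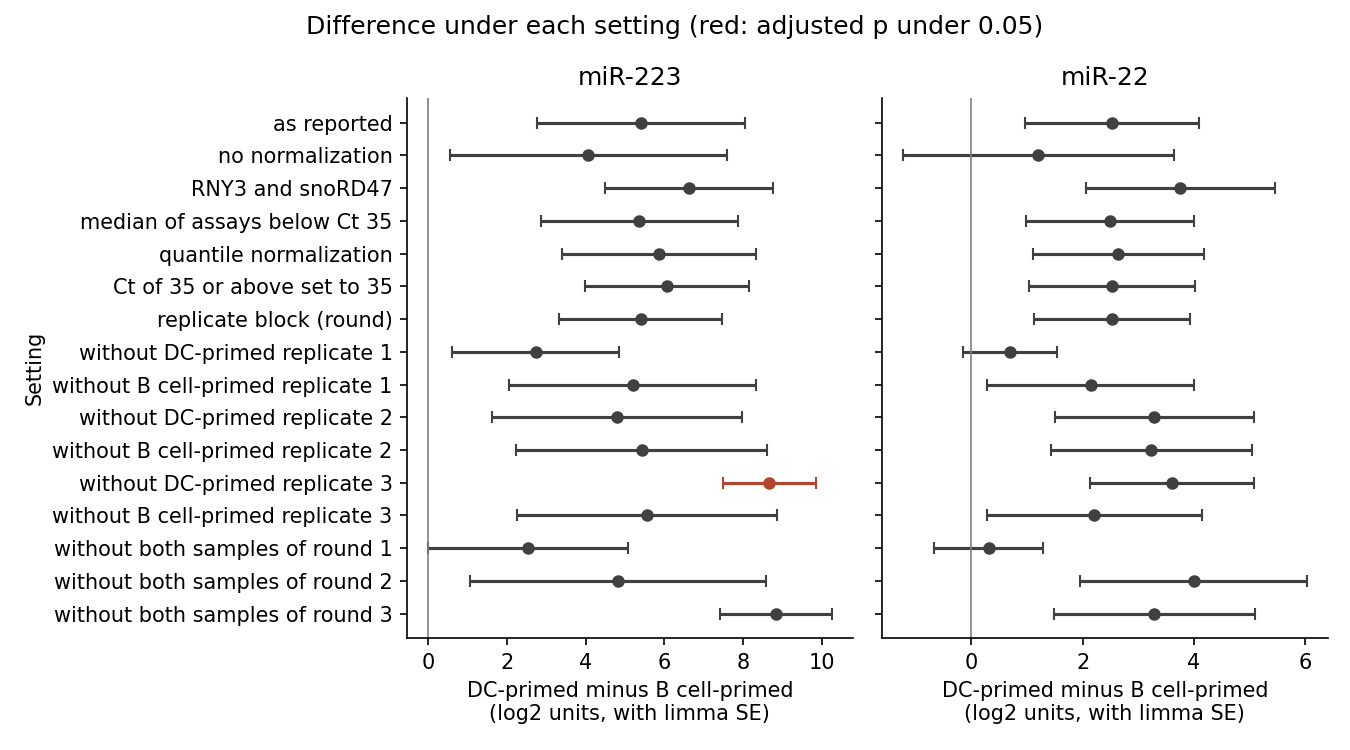
DC-primed minus B cell-primed difference (log2 units, bars are limma standard errors) for miR-223 and miR-22 under each scaling, with the round as a block, and without each sample or round. All points are above 0; the miR-223 value without DC-primed sample 3, 8.68, is the one with an adjusted p under 0.05.

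Other miRNAs known from myeloid and dendritic cells were listed with miR-223, miR-22 and miR-22*, and 13 of the 16 listed matched a mouse-named assay by name. limma called 0 of the 13 in either direction, the same share as over all assays (0.0%). Of the 13, 12 differences were positive and 1 negative, with a median of 1.77 beside 0.01 over all assays. Over all assays 173 of 345 differences were positive. The 13 are not independent, since miR-22 and miR-22* share a hairpin and miR-99b, let-7e and miR-125a a cluster. Without miR-223, miR-22 and miR-22* the median of the other 10 was 0.86. Without DC-primed sample 3 the median of the 13 was 2.74 and limma called 2 of them, miR-223 and miR-146b, both higher, against 1.16% of all assays; without DC-primed sample 1 the median was 0.78 and limma called 0. Without normalization 7 of the 13 were positive, with a median of 0.44 where that of all assays was -1.32. Of the 10 other than miR-223, miR-22 and miR-22*, 4 were then positive, with a median of -0.47.

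Members of this list differed in how they followed the rounds. miR-146b, which dampens Toll-like receptor signalling, had differences of 5.97, 6.17 and -4.09 by round, and its raw Ct of 38.77 in DC-primed sample 3 was past the flag, as for miR-223. miR-147, which macrophages induce after Toll-like receptor stimulation, had 5.71, 1.48 and 2.57, the largest difference after miR-223 in the list at 3.25 ± 1.24 (SE; limma adjusted p = 0.535). Without DC-primed sample 1 its difference was 1.80, and without DC-primed sample 3 it was 3.81, below miR-146b at 6.92. miR-99b, from a cluster with let-7e and miR-125a, had 5.07, 1.82 and 0.74. The smallest was miR-99b*, at -0.05 ± 0.67. The groups did not overlap for miR-147 and miR-99b, both higher in DC-primed cells, that is for 2 of 13 list members against 4.64% of all assays; miR-223 and miR-22 overlapped.

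**Figure D5:**
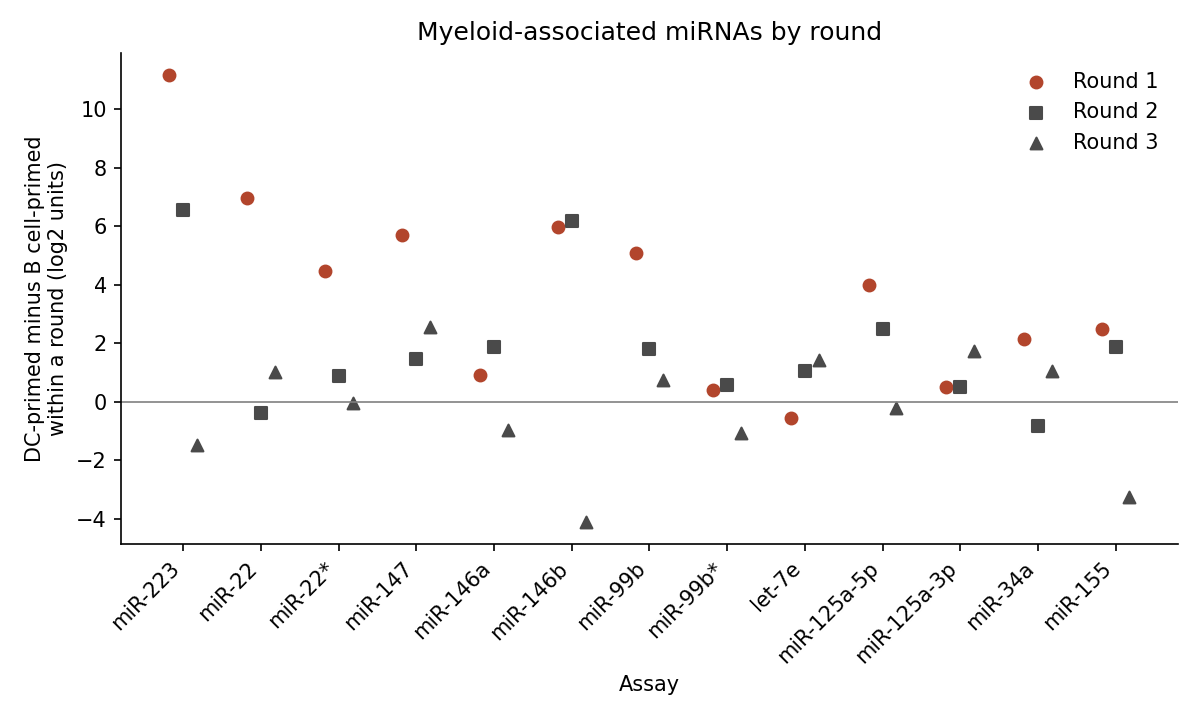
DC-primed minus B cell-primed difference (log2 units) within each of the 3 rounds for the 13 assays of the myeloid and dendritic list, with round 1 in red. The miR-223 points are at 11.15, 6.55 and -1.49, and miR-146b has the lowest round 3 point, -4.09.

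The summed level of the 13 assays (log2 of the sum of linear levels) was 8.84, 8.68 and 5.78 in DC-primed samples 1, 2 and 3, against 6.13, 6.85 and 6.27 for B cell-primed samples. For the 10 without miR-223, miR-22 and miR-22* it was 8.45, 8.66 and 5.74 against 6.12, 6.82 and 6.26. This sum was above the B cell-primed range in DC-primed samples 1 and 2, where miR-223 was early, and below it in sample 3, where miR-223 was late. The median level of the 13 was above the B cell-primed range in all 3, at 3.38, 0.81 and -1.01 against -1.25, -2.07 and -2.37. The contribution of RNA from the priming dendritic cells to miR-223 and miR-22 was not tested. miR-155, which activated T cells make as well, weighs most in these sums in 5 of 6 samples; its DC-primed levels were 8.05, 8.42 and 2.58, the last below let-7e at 5.33.

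Lists for other cells were read beside these values, and their part in the result was not tested either. The 4 lymphocyte-associated miRNAs, miR-150, miR-181a, miR-26a and miR-29a, were below Ct 35 in all 6 samples, although none of them is exclusive to T cells. Their summed level was 6.92, 5.43 and 3.87 in DC-primed samples 1, 2 and 3, against 4.89, 5.70 and 4.53 for B cell-primed samples. Like miR-223, it was highest in DC-primed sample 1 and lowest in DC-primed sample 3. For the 2 erythroid miRNAs, miR-451 and miR-144, the DC-primed sums, -2.08 to -0.73, overlapped the B cell-primed sums, -2.74 to -2.04, in sample 1 alone, and the groups did not overlap for miR-451, 1 of the 2, higher in DC-primed cells, against 4.64% of all assays. The 6 measured stromal and endothelial miRNAs had summed levels of -0.96 to 1.50 in DC-primed and 0.39 to 0.50 in B cell-primed samples. Of these 6, 2 did not overlap between groups and were lower in DC-primed cells, against 9.86% of all assays. One was miR-126-3p, with a raw Ct past 35 in DC-primed samples 2 and 3. Its groups were barely apart, at -4.25 in DC-primed sample 1 against -4.23 in B cell-primed sample 3. The other was miR-199a-5p, whose DC-primed sample 1 value was filled in by the authors. Of the pan-hematopoietic strands, miR-142-5p was at 2.75, 1.55 and 0.30 in DC-primed samples, against -0.16, 2.55 and 0.43 for B cell-primed samples. The miR-142-3p value of DC-primed sample 3 was filled in by the authors, so no comparison rests on it. limma called 0 assays of these lists.

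The assays closest in pattern to each miRNA were found by the root mean square gap over the 6 samples between levels centred on their own mean, among 247 other mouse-named assays that are not star strands. Closest to miR-223 were miR-9 at a gap of 1.00 log2 units, miR-222 at 1.79, miR-184 at 1.91, miR-146b at 2.24 and miR-100 at 2.39, where the median gap was 4.60. Each of these was highest of the 6 samples in DC-primed sample 1 and lower in DC-primed sample 3 than in the other DC-primed samples. miR-9 had levels of 1.46, -1.69 and -7.64 in DC-primed samples 1, 2 and 3, against -6.90, -7.46 and -7.85 for B cell-primed samples. Its Ct was 35 or above in 2 of the 6 samples, and that of miR-184 in 3, so their low values carry the same doubt as those of miR-223.

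Closest to miR-22 were miR-99b at a gap of 0.87, miR-147 at 1.00, miR-140 at 1.04, miR-101a at 1.11 and miR-338-3p at 1.12, with a median gap of 2.61. All 5 were highest in DC-primed sample 1. miR-22 itself ranked 8th in closeness to miR-223, at 2.74, whereas miR-223 ranked 146th in closeness to miR-22, whose pattern has a smaller range. These patterns share the 6 samples and their per-sample numbers.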

How the data were processed

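miRNA levels were measured by SYBR Green real-time PCR after poly(A) tailing, per the labels' protocols, in 6 samples grouped by title. Per the file headers, the deposited tables hold raw Ct values (cycles, 350 assays), the authors' dCt values (log2 units, lower for more miRNA, 345 assays), a fold change (ratio, DC-primed over B cell-primed) and a p-value from a two-tailed paired test. dCt is Ct minus 1 number per sample, stated in the file headers to be the geometric mean of its Ct values. Which assays entered that mean was not recovered here. For 2 of the 345 assays the deposited values departed from this relation by over 0.02 cycles, but not for miR-223, miR-22 or miR-22*. The names of the raw and normalized tables are swapped against their headers, and the headers and values were followed. The authors filled in 10 missing Ct values, none of them for miR-223, miR-22 or miR-22*. How Ct was called, and on which instrument, was not given in the sources used here, and each assay is 1 value per sample.

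Levels were minus dCt. The fit was limma 3.58.1 in R 4.3.3 (lmFit, eBayes, two-sided, Benjamini-Hochberg over all 345 assays, threshold 0.05), without a Ct filter and without a block. It was checked on simulated data with the same spread for all assays and both groups. That check does not cover unequal spreads such as those of miR-223. The set of 11 primate-cluster assays was added after seeing the data. Exact permutation tests used scipy 1.17.1. Figures used matplotlib 3.10.9. The members, lists and tests were chosen with earlier results of these data known. Named assays were the members with their star strands, the largest and smallest of each list, the next 2 in the order of differences and the 5 closest patterns; others, among them miR-146b in the list, miR-155, miR-142, miR-126-3p, miR-199a-5p, miR-805 and miR-449a, were named after their values were seen.

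Round numbers come from the titles. Within a round, the 2 samples' deviations from the means of their groups correlated over assays at 0.18, 0.18 and 0.46 for rounds 1, 2 and 3. Each was over 0.1, and the round was read as a pairing. However, DC-primed sample 1 correlated at 0.30 with B cell-primed sample 2, above its own round. These correlations therefore do not settle the pairing, which rests on the titles. The main fit and the exact permutation tests did not use this pairing. Alternatives were 4 scalings, 3 treatments of late Ct, 2 variance models, the round block, the authors' paired test and leaving out each sample or round; ranks were also taken over fewer assays, and the Ct gap with late Ct set to 35.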

Additional observations from a re-analysis of the deposited data

How the results depend on the processing

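The normalized differences of miR-223 and miR-22 stayed positive under every setting run. Across scalings and treatments of late Ct the miR-223 difference ranged from 4.07 without normalization to 6.63 relative to RNY3 and snoRD47, and that of miR-22 from 1.20 to 3.76, with no call; these 2 scalings move the median of all assays to -1.32 and 1.23. With only assays below Ct 35 in all 6 samples, miR-223 has no value. With the round as a replicate block the differences were 5.40 ± 2.08 (SE; limma adjusted p = 0.467) and 2.53 ± 1.40 (0.609), and the block changed no call. Leaving out 1 sample at a time gave 2.73 to 8.68 for miR-223, called without DC-primed sample 3 alone, and 0.70 to 3.60 for miR-22. It gave 0 to 5 called assays overall and 0 to 2 in the myeloid list. The mean raw Ct difference ranged from -8.39 to -0.31 cycles for miR-223 and from -3.32 to 1.73 for miR-22, whose sign turned without DC-primed sample 1 (1.73). The cause was not tested. The raw Ct gap ranged from -5.07 to -1.51 cycles, and the rank difference from -265.8 to -117.8 for miR-223 and from -84.3 to -32.5 for miR-22. The values of raw Ct and rank without single samples were added after seeing the data. Amplification efficiency is unknown, and the late miR-223 values are no earlier than most primate-cluster assays.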
